A study of Mus musculus with 17 samples.

Results

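The genes described here are the mast cell proteases *Cma1*, *Mcpt4*, *Tpsb2* and *Cpa3*, the mast cell receptor gene *Kit* and the gene of its ligand, *Kitl*, in mouse gastrocnemius muscle. They were chosen by symbol, 6 of the 45777 genes in the deposited count table, with results of the comparison between ages in view. Their values in that comparison are therefore given as a description, without a p-value. The intervals and FDR calls given for these genes there are descriptions too. Muscle RNA was sequenced from 17 male C57BL/6J mice in 3 groups: Mature (n = 7, obtained at 8 weeks of age), Middle-aged (n = 6, obtained at 12 months) and ALL (n = 4, obtained at 12 months and given allulose). All mice received AIN-93 semi-purified diet, and the ALL mice received it with 3% (w/w) D-allulose, a rare sugar related to fructose, for 12 weeks. Allulose was given only to the older mice, so ALL against Mature combines age and diet. The libraries held 49774656 to 72640511 counts. The strain field of the labels is spelled C56BL/6J, their extraction text names other tissues than muscle, and the study's methods give another supplier and starting age for the mice. In every library 8 markers of skeletal muscle fibres summed to 108468 to 140679 CPM (read counts scaled to a common library size with TMM factors), as the tissue label says.

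Mast cells leave the bone marrow as progenitors and mature in connective tissue, often along small vessels and nerves. Their granules store proteases bound to heparin: chymases, which cut after aromatic residues, tryptases, which cut after basic residues, and carboxypeptidase A3, which trims the ends of peptides. Stem cell factor, the product of *Kitl*, is made by fibroblasts and endothelial cells and keeps mast cells alive through the receptor tyrosine kinase KIT. In mouse, *Cma1* encodes mMCP-5, which by sequence is an alpha-chymase although it cuts after small aliphatic residues, and *Mcpt4* encodes mMCP-4, the chymase with the activity closest to that of the human enzyme. *Tpsb2* encodes the tryptase mMCP-6.

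In the GRCm38.p6 annotation of RefSeq, *Cma1* (Entrez 17228) lies at chr14:55941451-55944675 and *Mcpt4* (17227) at chr14:56059744-56062310, both on the minus strand of the chymase cluster. *Tpsb2* (17229) lies at chr17:25366308-25368096, *Cpa3* (12873) at chr3:20215616-20242209, *Kit* (16590) at chr5:75574987-75656722 and *Kitl* (17311) at chr10:100015615-100100416. Because the 3 proteases with a promoter window in the RefSeq table varied together across mice (below), their 250 bases before the transcript start are shown, with GATAA, the core of the motif that GATA factors bind, or its reverse complement TTATC in capitals.
Cma1: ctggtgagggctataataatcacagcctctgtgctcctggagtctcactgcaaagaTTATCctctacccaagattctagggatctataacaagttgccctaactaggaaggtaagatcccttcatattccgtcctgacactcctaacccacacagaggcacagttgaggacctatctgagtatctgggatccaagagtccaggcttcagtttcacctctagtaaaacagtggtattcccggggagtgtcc
Mcpt4: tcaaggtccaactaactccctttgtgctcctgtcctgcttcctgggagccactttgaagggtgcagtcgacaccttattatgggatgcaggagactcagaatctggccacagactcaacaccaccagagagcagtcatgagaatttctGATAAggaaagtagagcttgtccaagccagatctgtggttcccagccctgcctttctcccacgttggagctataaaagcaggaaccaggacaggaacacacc
Cpa3: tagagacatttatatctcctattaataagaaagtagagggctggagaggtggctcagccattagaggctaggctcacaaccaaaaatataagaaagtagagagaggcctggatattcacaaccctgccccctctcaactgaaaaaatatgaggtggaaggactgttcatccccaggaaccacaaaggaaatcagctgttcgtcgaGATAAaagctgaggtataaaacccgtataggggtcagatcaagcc
The windows are chr14:55944676-55944925 for *Cma1*, chr14:56062311-56062560 for *Mcpt4* and chr3:20242182-20242431 for *Cpa3*, written 5′ to 3′ along the gene. The *Cpa3* window overlaps the gene as placed above, so the transcript start used for it lies inside that gene. Each held the motif once on either strand, with its first base at -194 in *Cma1*, -102 in *Mcpt4* and -45 in *Cpa3* relative to the transcript start. The motif was present in 23.0% of 27025 promoter windows of the same length, and in neither the *Kit* nor the *Kitl* window. A match of 5 letters is a description of the sequence only. *Tpsb2* had no entry in the table. Of the 75-base words in the *Cma1* transcript 17 of 1016 also occur in *Gm48934*, and 26 of 1034 of those of *Mcpt4* occur in *Cma2*, so few reads of either could be shared.

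The 4 proteases were scarce in muscle and were present in every mouse. Expressed per transcript length, the mean level in Mature mice was 1.81 ± 0.919 TPM for *Mcpt4*, 1.63 ± 0.932 for *Tpsb2*, 1.08 ± 0.658 for *Cma1* and 0.672 ± 0.551 for *Cpa3* (SD, n = 7). *Kit* was lower still at 0.361 ± 0.220 TPM, and *Kitl* was the highest of the 6 at 8.99 ± 1.71 TPM (SD, n = 7). Neighbours in this order differed by less than the larger of their SDs, except that *Kitl* lay above the rest by more than that. The order of the means was the same in Middle-aged and ALL mice.

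The genes differed widely in how far they ranged over the 17 mice. From the lowest to the highest mouse, TPM spanned 40.8-fold for *Cpa3*, 17.6-fold for *Cma1*, 17.3-fold for *Mcpt4* and 13.0-fold for *Tpsb2*, against 4.97-fold for *Kit* and 1.93-fold for *Kitl*. Middle-aged mouse 5 was the highest for each of the 4 proteases. It was not the highest for *Kit* (Middle-aged mouse 2) or *Kitl* (Mature mouse 1).

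*Cma1* had the larger counts in Middle-aged mice. The lowest, median and highest counts were 17, 30 and 93 in Mature mice and 44, 89.5 and 314 in Middle-aged mice, and the 4 ALL mice had 37, 60, 49 and 19. In CPM, here scaled by the TMM library size, the group means were 0.688 ± 0.403 (Mature, n = 7), 1.80 ± 1.33 (Middle-aged, n = 6) and 0.617 ± 0.256 (ALL, n = 4; SD). All 6 Middle-aged mice were above the Mature median and 3 were above the highest Mature mouse, while all 4 ALL mice were below the Middle-aged median and 2 were below the lowest Middle-aged mouse. The groups overlapped in each comparison.

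*Mcpt4*, the other chymase, had counts of 23, 60 and 123 (lowest, median, highest) in Mature mice and of 43, 138.5 and 402 in Middle-aged mice, and the 4 ALL mice had 34, 123, 77 and 24. Its mean was 1.05 ± 0.499 CPM in Mature, 2.54 ± 1.78 in Middle-aged and 0.959 ± 0.645 in ALL mice (SD). Here too 3 of 6 Middle-aged mice exceeded every Mature mouse, and 2 of 4 ALL mice fell under every Middle-aged mouse, so the groups overlapped.

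The tryptase gene *Tpsb2* had counts of 23, 57 and 121 in Mature mice and of 39, 115 and 360 in Middle-aged mice, with 41, 87, 53 and 30 in the ALL mice. Its means were 1.05 ± 0.553, 2.25 ± 1.54 and 0.785 ± 0.341 CPM (SD; Mature, Middle-aged, ALL). For *Tpsb2*, 2 of 6 Middle-aged mice lay above the highest Mature mouse and 5 of 6 lay above the highest ALL mouse.

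*Cpa3*, the carboxypeptidase gene, was the least abundant protease, with counts of 5, 26 and 91 in Mature mice and of 18, 63.5 and 186 in Middle-aged mice. The ALL mice had 25, 50, 27 and 6 counts. Its means were 0.566 ± 0.446, 1.13 ± 0.883 and 0.401 ± 0.254 CPM in the same order (SD). Of the 6 Middle-aged mice, 3 were above the highest Mature mouse, 2 were below the Mature median and 0 were below the lowest Mature mouse.

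*Kit* had nearly the same mean in each group, 1.12 ± 0.654, 1.13 ± 0.552 and 1.12 ± 0.638 CPM (SD; Mature, Middle-aged, ALL). Its counts were 30, 52 and 138 (lowest, median, highest) in Mature mice and 40, 64 and 142 in Middle-aged mice, and 69, 143, 53 and 38 in the ALL mice. *Kit* is also made by melanocytes and interstitial cells of Cajal, and in bulk muscle its reads cannot be assigned to mast cells. *Kitl* had 1357, 1769 and 2371 counts (lowest, median, highest) in Mature mice, 1342, 1681.5 and 1793 in Middle-aged mice and 2013, 1925, 1397 and 1831 in ALL mice, with overlapping groups.

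**Figure D1:**
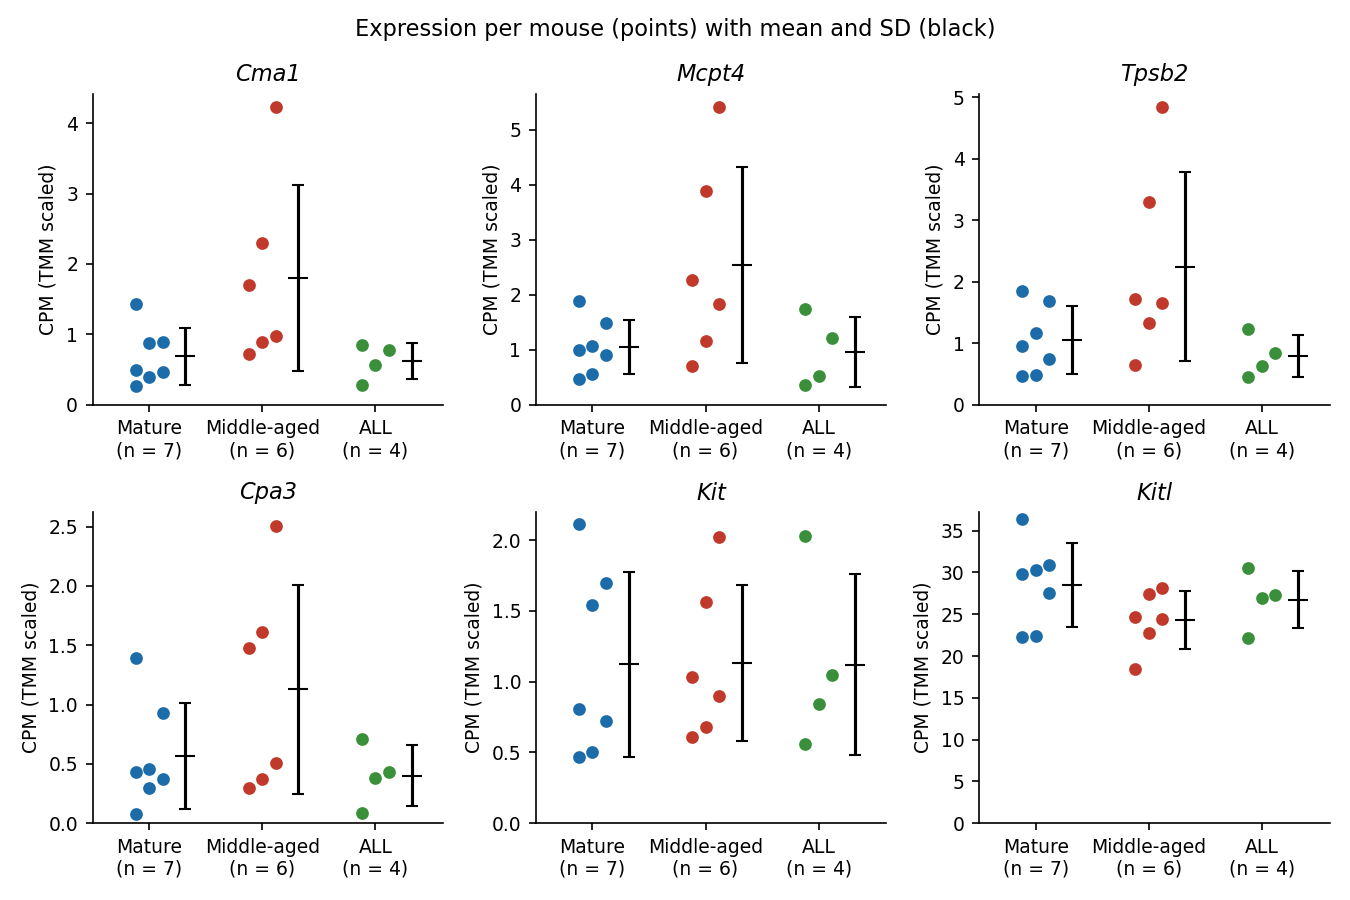
Expression of the 6 genes in each of the 17 mice, in TMM-scaled CPM on linear axes that start at 0 and differ between panels; points are mice and black bars are the mean and SD of each group. For each protease 1 Middle-aged mouse stands highest, at 4.22 CPM for Cma1, and the groups overlap.

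In the fit of edgeR over the 16731 genes that passed the filter on low counts, all 6 genes were kept. The fitted logFC (log2) of Middle-aged against Mature was 1.38 for *Cma1* (SE 0.42, 95% interval 0.49 to 2.27), 1.27 for *Mcpt4* (SE 0.44), 1.09 for *Tpsb2* (SE 0.41) and 0.99 for *Cpa3* (SE 0.56). The corresponding values were 0.02 for *Kit* (SE 0.39) and -0.23 for *Kitl* (SE 0.12). At an FDR of 0.05, 1 of the 6 genes, *Cma1*, was called, where 10.3% of all genes tested were called 4.75% higher and 5.54% lower in Middle-aged mice. None of the 6 had groups that did not overlap, against 4.04% of all genes. These genes were chosen with this comparison known, and nothing is read from the counts.

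The *Cma1* call rested on few reads and on most of the mice. It was lost in 11 of 17 fits that each left out 1 mouse, including 6 of 7 that left out a Mature mouse, and the logFC then ranged from 0.92, without Middle-aged mouse 5, to 1.67, without Mature mouse 1. All 4 proteases had their smallest logFC without Middle-aged mouse 5, at 0.90 for *Mcpt4*, 0.71 for *Tpsb2* and 0.58 for *Cpa3*, and none of the 4 was called there. In bulk tissue, more mast cells and more protease RNA in each mast cell cannot be told apart.

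ALL against Middle-aged asked whether allulose was accompanied by a difference in these genes at the same age. The 4 proteases had lower fitted levels in ALL mice, and none passed the FDR threshold. The logFC was -1.55 for *Cma1* (SE 0.51, 95% interval -2.62 to -0.47), -1.41 for *Mcpt4* (SE 0.53, -2.52 to -0.29), -1.52 for *Tpsb2* (SE 0.50, -2.56 to -0.47) and -1.49 for *Cpa3* (SE 0.69, -2.93 to -0.05). *Kit* (-0.02, SE 0.45) and *Kitl* (0.14, SE 0.13) were near 0.

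The unadjusted p in edgeR was 0.00742 for *Cma1*, 0.0162 for *Mcpt4*, 0.00686 for *Tpsb2* and 0.0435 for *Cpa3*, and the adjusted p was 0.9997 for each. Across all genes edgeR called 0 of 16731 (percent called 0) and 603 genes (3.6%) had an unadjusted p under 0.05, DESeq2 called 2 genes and the likelihood ratio test of edgeR called 4, none of them among the 6. The 6 genes had overlapping groups here, as had all but 0.478% of the genes tested. For each protease, all 4 ALL mice lay below the Middle-aged median. The same 6 Middle-aged mice enter the comparison in which the genes were chosen, so their high level is in both sets of values. Choosing genes in this way favours a negative logFC here, so these p-values and intervals are a description and not a test of allulose. Without Middle-aged mouse 5 the logFC was -1.09 for *Cma1*, -1.04 for *Mcpt4*, -1.14 for *Tpsb2* and -1.08 for *Cpa3*, with edgeR p before adjustment of 0.0278, 0.0538, 0.0237 and 0.126.

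Between ALL and Mature mice, none of the 6 genes was called. Over all genes edgeR called 6.5%, 3.32% higher and 3.18% lower in ALL mice, and 6.04% had groups that did not overlap. The logFC was -0.16 for *Cma1* (95% interval -1.21 to 0.89, adjusted p = 0.885) and -0.13 for *Mcpt4* (-1.22 to 0.95, adjusted p = 0.909). It was -0.42 for *Tpsb2* (-1.44 to 0.59, adjusted p = 0.654) and -0.50 for *Cpa3* (-1.91 to 0.91, adjusted p = 0.714). Each of these 4 intervals spans 0 widely, which does not show that the groups were alike. The Mature mice also enter the comparison in which the genes were chosen, which favours a positive logFC for the proteases here. These p-values and intervals are therefore a description and not a test. For *Kitl* the interval was narrow, -0.37 to 0.18.

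**Figure D2:**
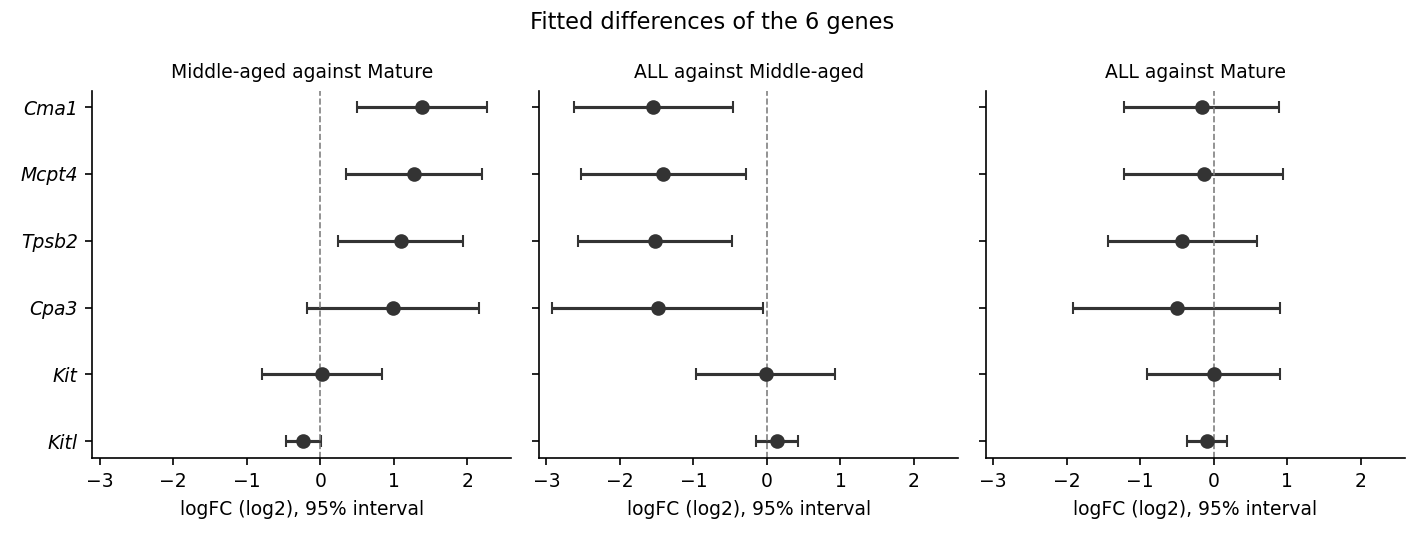
Fitted logFC (log2) of the 6 genes with 95% intervals from edgeR for the 3 comparisons, all on the same horizontal axis, with 0 dashed. The proteases lie to the right of 0 in Middle-aged against Mature and to the left in ALL against Middle-aged. In ALL against Mature they lie to the left of 0 with wide intervals that span it. The intervals of Kitl are the narrowest.

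**Figure D3:**
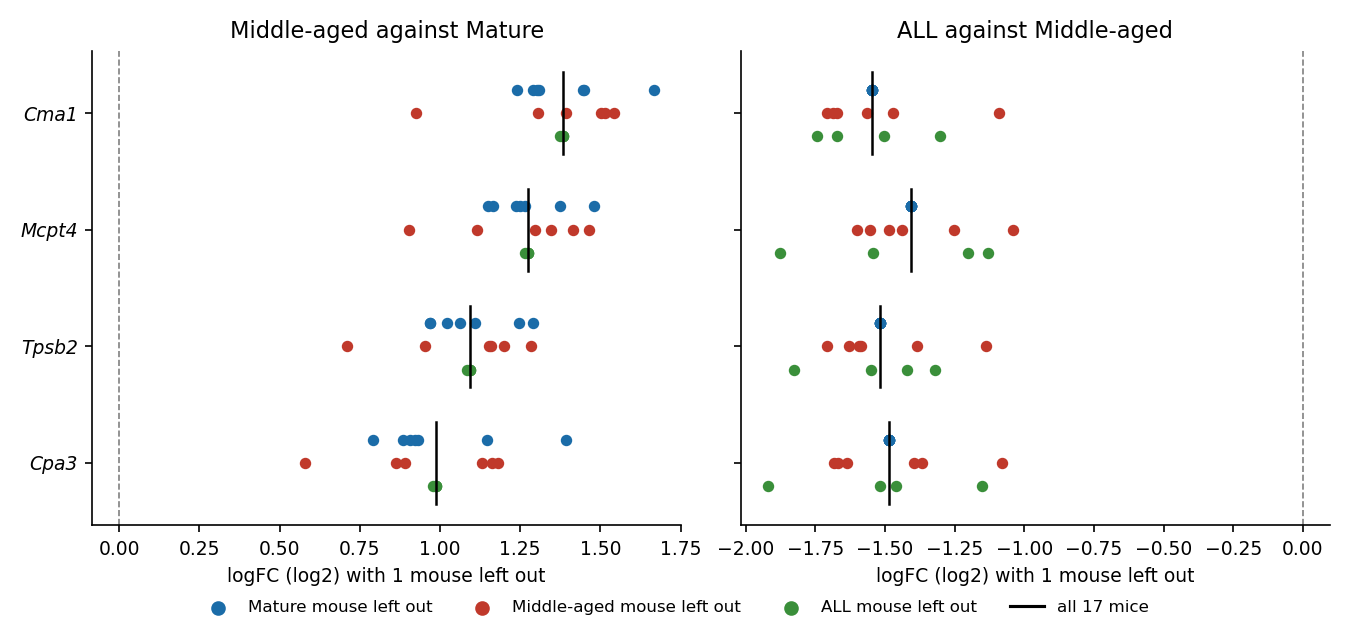
Fitted logFC (log2) of the 4 proteases when 1 mouse is left out, coloured by the group of that mouse, with the value from all 17 mice as a black line and 0 dashed. The lowest value of Cma1 in Middle-aged against Mature, 0.92, is the fit without Middle-aged mouse 5, and in these 2 comparisons every point keeps the sign of the fit to all mice.

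Within groups, mice with more of one protease had more of the others. After the mean of each group was subtracted from log2 CPM, *Cma1* correlated over the 17 mice with *Cpa3* (Pearson r = 0.943, Spearman rho = 0.951), *Mcpt4* (r = 0.913, rho = 0.934) and *Tpsb2* (r = 0.904, rho = 0.897). The permutation p of r, from 100000 shuffles within groups, was 1e-05, 1e-05 and 3e-05, where 1e-05 is the smallest possible, and that of rho was 1e-05, 1e-05 and 4e-05. Adjusted over 23 relations the p of r was 5.75e-05, 5.75e-05 and 9.86e-05, and the p of rho was 4.6e-05, 4.6e-05 and 0.000131. Without the 2 mice farthest from the median of *Cma1*, r was 0.933, 0.884 and 0.850. The chymase gene *Mcpt4* followed *Tpsb2* as closely (r = 0.955, rho = 0.941, adjusted permutation p = 5.75e-05).

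The receptor gene *Kit* followed the proteases less closely and *Kitl* did not pass the test with any of them. *Kit* against *Cma1* had r = 0.514 (rho = 0.534, permutation p = 0.0461, adjusted p = 0.0831). That r fell to 0.341 without the 2 mice farthest from the median of *Cma1*. *Kit* against *Cpa3* had r = 0.596 (rho = 0.561, permutation p = 0.0193, adjusted p = 0.0443), and the adjusted permutation p of rho was 0.0624. Without the 2 mice farthest from the median of *Cpa3* that r was 0.413, so the relation rests in part on those mice. *Kitl* against *Cma1* had r = 0.311 (rho = 0.304, adjusted permutation p = 0.365) and *Kit* against *Kitl* had r = 0.129 (rho = 0.128, adjusted permutation p = 0.852). Of the 15 pairs of the 6 genes, 7 passed: the 6 pairs of proteases and *Kit* with *Cpa3*. In the 14 mice without *Krt5* or *Krt14* counts (below) r was larger for *Kit* with *Tpsb2* (0.816), *Mcpt4* (0.719), *Cpa3* (0.672) and *Cma1* (0.615). It was also larger for *Kitl* with *Cpa3* (0.615) and *Cma1* (0.546). These values were added after the data were seen and are given without a test.

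The ratios between the genes in TPM were taken over all mice with group differences kept. They are a description and not a second test of these relations. Over the 17 mice the ratio of *Mcpt4* to *Cma1* lay between 1.01 and 2.36 (median 1.47) and that of *Tpsb2* to *Cma1* between 0.846 and 2.25 (median 1.39). *Cpa3* was always below *Cma1*, at a ratio of 0.191 to 0.788. The ratio of *Kit* to *Cma1* ranged more widely, from 0.0749 to 0.797, with medians of 0.327 in Mature, 0.161 in Middle-aged and 0.392 in ALL mice. Those medians carry the group differences of *Cma1*, with which in view the genes were chosen. The ratio of *Kitl* to *Cma1* ranged from 1.08 to 19.4.

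Among 13581 genes with a mean log2 CPM over -1, the 3 other proteases were the 3 whose deviations were most like those of *Cma1* (r over 17 mice). The next 7 were *Cd53* (0.90), *Lcp1* (0.89), *Dennd2a* (0.89), *Fam111a* (0.88), *Csf1r* (0.88), *Fbln1* (0.88) and *F13a1* (0.88). *Cd53* and *Lcp1* are made by leukocytes in general, *Csf1r* is the receptor for macrophage colony-stimulating factor, *F13a1* encodes a coagulation factor subunit made by resident macrophages, and *Fbln1* encodes the matrix protein fibulin-1. *Kit* was at rank 932 and *Kitl* at rank 2239. Without Middle-aged mouse 5, *Cpa3* stayed at rank 1, *Mcpt4* moved to rank 6 and *Tpsb2* to rank 11.

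Markers of other cells moved with *Cma1* between mice of one group. Here the 2 farthest mice are those farthest from the median of the marker mean, and they can differ between lists. The mean log2 CPM of 8 macrophage markers correlated with *Cma1* at r = 0.904 (rho = 0.944, adjusted permutation p = 5.75e-05; r = 0.868 without the 2 farthest mice), a relation added after the data were seen. For 10 fibroblast and matrix genes r was 0.814 (rho = 0.865, adjusted permutation p = 0.000719; r = 0.752 without the 2 farthest mice) and for 8 tendon genes it was 0.701 (rho = 0.652, adjusted permutation p = 0.00836; r = 0.607). The 8 endothelial genes (r = 0.517, rho = 0.578, adjusted permutation p = 0.0919), the mitochondrial share of reads (r = 0.12, rho = 0.13, adjusted permutation p = 0.852) and the library total (r = 0.084, rho = -0.149, adjusted permutation p = 0.858) did not pass. The part of how much connective tissue or how many leukocytes a sample held was not tested.

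**Figure D4:**
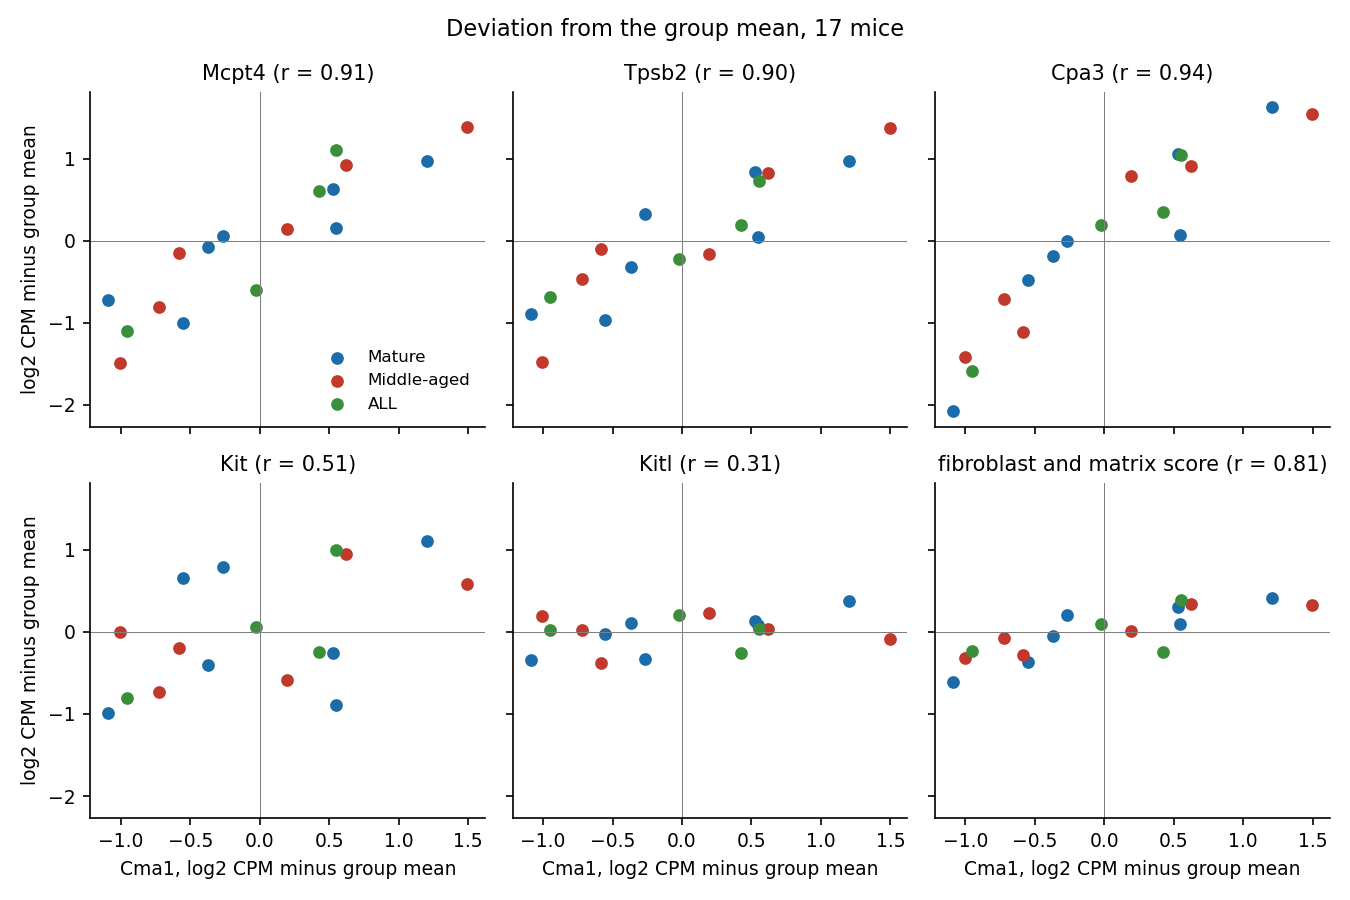
Deviation of Cma1 from its group mean (log2 CPM, horizontal) against that of 5 other genes and of the mean of 10 fibroblast and matrix genes (log2 CPM, vertical), 1 point a mouse, 17 mice, coloured by group. Cpa3 lies nearest to a line (r = 0.94), while Kit scatters (r = 0.51) and Kitl hardly varies (r = 0.31).

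Between groups the lists of these other markers moved as follows. Over all genes edgeR called 10.3% in Middle-aged against Mature and 0 in ALL against Middle-aged. The summed level of the 8 macrophage markers, none of which was at 0 in every mouse, ranged from 13.5 to 41.5 CPM (Mature), from 23.9 to 56.4 (Middle-aged) and from 12.3 to 31.4 (ALL), and 0 of 8 were called in either comparison with Middle-aged mice (median logFC 0.44 and -0.66). Of the 10 fibroblast and matrix genes 5 fell with age, among them *Col1a1* (-1.39) and *Col3a1* (-1.46), 5 were not called and 3 had a positive logFC (median -0.51), where 5.54% of all genes were called lower. Also lower with age were 4 of 8 tendon genes (median -1.25), 6 of 8 endothelial genes (-0.63), 6 of 7 smooth muscle and pericyte genes (-0.49) and 7 of 7 Schwann cell genes (-1.75), with none higher. In ALL against Middle-aged edgeR called none of the genes in these 5 lists, and the medians were -0.37 for fibroblast and matrix, 0.22 for tendon, 0.13 for endothelial, 0.07 for smooth muscle and pericyte and 0.80 for Schwann cell genes. The 6 adipocyte markers had a median logFC of -0.28 in Middle-aged against Mature and -2.10 in ALL against Middle-aged, with none called in edgeR. In the latter 5 of 6 had an unadjusted p under 0.05 in edgeR, where 3.6% of all genes tested had. The adipocyte mean did not follow *Cma1* between mice (r = 0.084, rho = -0.029, adjusted permutation p = 0.858). The part of these markers in the protease differences was not tested.

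3 libraries stood apart by epidermal keratins. *Krt5* and *Krt14*, keratins of basal skin cells, had 471 and 240 counts in Mature mouse 7, 230 and 98 in Middle-aged mouse 4 and 439 and 462 in Middle-aged mouse 5, and 0 in the other 14 mice. For *Cma1*, Middle-aged mouse 5 was the highest of all mice, Middle-aged mouse 4 was the lowest of its group with 44 counts, and Mature mouse 7 had 20 counts, near the lowest of its group. The keratin *Krt10* had counts in every mouse, such as 59 in Mature mouse 1 and 240 in Middle-aged mouse 5. The summed keratinocyte level includes it, and in the other 14 mice that sum was almost all *Krt10*. Over all mice the sum had r = -0.037 with *Cma1* (rho = -0.098, adjusted permutation p = 0.904). This r was -0.416 without Middle-aged mouse 5, which was high in both, and -0.338 without the 3 mice. The part of skin in the protease values was not tested. Without the 3 mice the logFC of *Cma1* was 0.99 in Middle-aged against Mature, where it was no longer called, and -1.24 in ALL against Middle-aged, and r between *Cma1* and *Cpa3*, *Mcpt4* and *Tpsb2* was 0.942, 0.888 and 0.882.

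**Figure D5:**
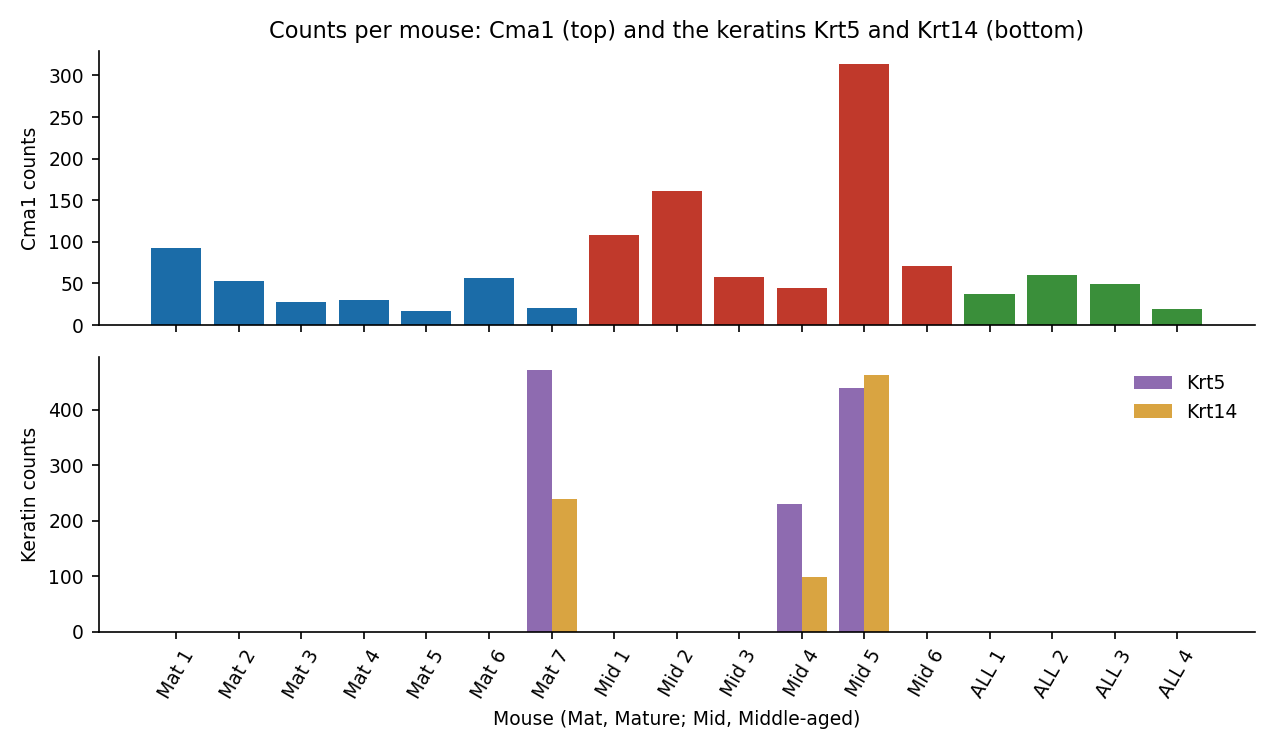
Counts per mouse of Cma1 (top) and of the keratins Krt5 and Krt14 (bottom), with mice in the order Mature 1 to 7, Middle-aged 1 to 6 and ALL 1 to 4. The keratins are above 0 in 3 mice, of which Middle-aged 5 has the most Cma1 (314 counts) while Mature 7 and Middle-aged 4 have few (20 and 44).

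Most of the other genes that mark mast cells closely had few counts. Of the 14 mast cell proteases listed, the 4 described above were kept by the filter, and *Mcpt1*, *Mcpt2* and *Mcpt9* were at 0 in all 17 mice, which allows up to 0.0413 to 0.0603 CPM in a library (3 counts, counting error only). *Mcpt1* and *Mcpt2* are proteases of mucosal mast cells. *Tpsab1*, the tryptase mMCP-7 that C57BL/6 mice lack through a splice defect, had 0 to 22 counts. The high-affinity IgE receptor genes *Fcer1a* and *Ms4a2* had 0 to 13 and 0 to 16 counts. The receptors *Mrgprb2*, which binds basic secretagogues, and *Mrgprb1* had 0 to 30 and 0 to 72. Their logFC was 1.33 and 1.08 in Middle-aged against Mature and -1.10 and -1.19 in ALL against Middle-aged, and neither was called. *Hdc*, which makes histamine, had counts between 5 and 21 (Mature), 8 and 69 (Middle-aged) and 0 and 16 (ALL), with logFC of 1.01 and -2.22 and an adjusted p in edgeR of 0.232 and 0.9997 in the comparisons with Middle-aged mice. Of 6 basophil markers, which share several of these genes, *Mcpt8* had 0 to 3 counts and *Prss34* 0 to 10, and 2 were tested in edgeR: *Il3ra*, the interleukin-3 receptor chain, which was not called, and the integrin gene *Itga2*, which was lower in ALL than in Mature mice (logFC -1.70, adjusted p = 0.0234) with at most 41 counts in any mouse.

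Of 24 receptor, granule and mediator genes, 19 were tested in edgeR. In Middle-aged against Mature none was called higher and 2 of 19 were called lower, where 10.3% of all genes were called and 5.54% were called lower, and DESeq2 called 3 lower. The median logFC was 0.16 against 0.01 for all genes, and 14 of the 19 had a positive logFC, against 8692 of all 16731. The 2 genes that edgeR called lower were *Ndst2* (-0.28), an enzyme of heparin synthesis that many cells express, and *Ptgs1* (-0.39), which encodes cyclooxygenase-1. None was called in ALL against Middle-aged (median -0.46), where 4 of the 19 had a positive logFC and edgeR called 0 of all 16731 genes. *Ptgs1* (-0.51) was the only 1 that edgeR called in ALL against Mature, where 3.18% of all genes were called lower. DESeq2 called 2 of the list there. Counts of list genes called by DESeq2, here and below, stand without its share over all genes, and nothing is read from them. None of 9 transcription factors tested was called in any comparison by edgeR or DESeq2. Over all genes edgeR called 10.3% in Middle-aged against Mature, 0 in ALL against Middle-aged and 6.5% in ALL against Mature. *Gata2*, which mast cells need but endothelial cells also express, had 220 to 402 counts over all mice with logFC of -0.18 and 0.03.

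Downstream of the receptor, 22 of 23 Kit signaling genes were tested and 1 was called in Middle-aged against Mature, *Fyn* (-0.44), a Src family kinase, with a median of -0.09. That count, 1 of 22, stood beside 10.3% of all genes called and 5.54% called lower. In edgeR none was called in ALL against Middle-aged, where 0 of all genes were, or in ALL against Mature, where 6.5% were. DESeq2 called 2 lower in ALL against Mature. None of the 10 growth and recruitment factors tested was called in edgeR in any comparison, beside the same shares of all genes. Their medians were 0.04 between the ages, 0.01 for ALL against Middle-aged and 0.11 for ALL against Mature. DESeq2 called 1 lower in each comparison with Mature mice, and without Middle-aged mouse 5 edgeR called 1 lower in Middle-aged against Mature. The latter count also stands without the share over all genes in that fit, and nothing is read from it.

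Among 11 tested substrates of chymase and genes of the angiotensin pathway, 1 was called higher in Middle-aged mice in edgeR, where 4.75% of all genes were, and none lower. DESeq2 called 1 higher and 3 lower. *Mmp9*, whose pro-enzyme mouse chymase can activate, had 8, 22 and 34 counts (lowest, median, highest) in Mature mice and 28, 51 and 163 in Middle-aged mice, and 58, 24, 15 and 8 in ALL mice. Its highest value, 163, was again in Middle-aged mouse 5, and the groups overlapped. The logFC was 1.57 (SE 0.43, adjusted p = 0.0254 in edgeR) in Middle-aged against Mature and -1.29 (SE 0.51, adjusted p = 0.9997 in edgeR) in ALL against Middle-aged. This list was chosen with earlier results of these data known, so these p-values are a description. In ALL against Mature 2 were lower in edgeR, where 3.18% of all genes were called lower, and 4 were lower in DESeq2. The 2 were *Mmp2* (-0.76), a gelatinase, and *Enpep* (-0.76), which encodes aminopeptidase A, the enzyme that trims angiotensin II. Without Middle-aged mouse 5, 0 of the 11 genes were called higher in Middle-aged mice and 2 were called lower. Without the 3 libraries with *Krt5* and *Krt14* counts none of these 11 genes was called in Middle-aged against Mature. None of the 18 receptor, granule and mediator genes then tested was called either. Counts from fits without these mice stand without the share of all genes called in the same fits, and nothing is read from them. The renin gene *Ren1* was at 0 in all mice.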

How the data were processed

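RNA-seq of gastrocnemius muscle from 17 mice was analysed from 1 table. The deposited read counts per gene, raw and not normalized, were made by the authors, and the submitters' processing notes name Trimmomatic 0.38, FastQC 0.11.7, HISAT2 2.1.0, featureCounts and mm10, while the study's methods name STAR and StringTie, so the aligner behind the counts is uncertain. The deposited TPM values, which the authors scaled by transcript length and depth, were used only to compare levels between genes. Another 35 columns of per-sample values (10 of counts, 8 of TPM and 17 of FPKM) and the columns with the authors' own comparisons were not used here. Library totals were 49774656 to 72640511 counts and the mitochondrial share was 15.2% to 23.5%. The labels name no technical batch.

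Counts of all 17 mice were fitted together in edgeR 4.0.16 (R 4.3.3; filterByExpr with a minimum count of 10, TMM, quasi-likelihood test, Benjamini-Hochberg FDR of 0.05 over 16731 genes, 29046 removed), and the fit was tested on simulated data. Relations between mice used log2 CPM with a prior count of 2, group means removed, and were tested two-sided by 100000 permutations within groups (NumPy 2.4.6), adjusted over 23 relations, 3 of them added after seeing the data. Scores were the mean log2 CPM of a marker list. Intervals are 95% and cover the spread between mice, and the floor of 3 counts covers counting error only. Promoters came from RefSeq (GRCm38.p6; 5 of 6 genes matched). The 6 genes were named throughout, as were the genes most like *Cma1* (10) and the genes that passed the fit in the lists of mast cell, Kit signaling, substrate and basophil genes; the rule also allowed genes that passed in the lists of other cell types and the 4 most abundant of each list, of which few are named and the rest are given as counts; the low-count mast cell and basophil markers were named for their role, and *Il1rl1*, *Spi1*, *Il33* and *Ccl11* after their values were seen. Members and lists were chosen with earlier results of these data known. Alternatives were DESeq2 1.42.0, the likelihood ratio test, library size scaling, no filter, the 2 groups alone, a mitochondrial covariate, a replicate block and each mouse left out. Leaving out the 3 libraries with *Krt5* and *Krt14* counts (the keratin libraries) was added after seeing the data. Replicate numbers did not pair mice: the median correlation of deviations was 0.06 for 14 pairs of equal number and -0.01 for 80 others.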

Additional observations from a re-analysis of the deposited data

How the results depend on the processing

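As a description of the comparison in which the genes were chosen, *Cma1* was past the FDR threshold of Middle-aged against Mature in 4 of 9 other settings and in 6 of 17 fits without 1 mouse. Without 1 mouse its logFC ranged from 0.92 to 1.67. With the replicate block it was 1.10 and not past the threshold; the numbers do not pair the mice, and the block gave 615 genes called in ALL against Mature in place of 1087. DESeq2 called 1696 genes in ALL against Mature and 2 in ALL against Middle-aged, where the likelihood ratio test called 4; the cause was not tested. Leaving out 1 mouse gave 1310 to 1816 genes in Middle-aged against Mature, 0 to 1 in ALL against Middle-aged and 430 to 1096 in ALL against Mature. *Mcpt4* was past the threshold in 3, *Tpsb2* in 2 and *Kitl* in 1 of the 26 alternatives for Middle-aged against Mature.

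Some values turned sign. For *Kit* in ALL against Mature the logFC was -0.0047 (DESeq2), -0.0018 (library size), -0.0018 (no filter), -0.00074 (2 groups), -0.0022 (likelihood ratio test), -0.062 (replicate block) and -0.062 (Mature mice 5 and 7 left out), and -0.46 to 0.24 without 1 mouse. In ALL against Middle-aged it was 0.0063 (mitochondrial covariate), 0.088 (keratin libraries left out) and -0.48 to 0.23 without 1 mouse. In Middle-aged against Mature it was -0.043 (Mature mice 5 and 7 left out) and -0.23 to 0.25 without 1 mouse. In ALL against Mature *Cma1* ranged from -0.36 to 0.12 and *Mcpt4* from -0.60 to 0.13 without 1 mouse. With group means kept, r with *Kitl* was -0.029 for *Cma1*, -0.170 for *Mcpt4* and -0.147 for *Tpsb2*, and r with *Cma1* was -0.245 for the endothelial score (0.517 with them removed) and 0.179 for the keratinocyte sum. Without the keratin libraries r with *Cma1* was -0.525 for library total and -0.099 for the adipocyte score. Without the 2 mice farthest in *Kit*, r was -0.119 for *Kit* and *Kitl*. Without the 2 mice farthest in the adipocyte score, r of that score with *Cma1* was -0.043. Without the 2 mice farthest in library total, r of that total with *Cma1* was -0.388.

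Low counts limit the proteases, with 17 counts in the lowest library for *Cma1* and 5 for *Cpa3*. Groups of 7, 6 and 4 mice limit the rest.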

Other observations

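The following 4 genes were picked out after their values were seen, and other genes of the same lists had values near 0 or of the other sign in ALL against Middle-aged, such as *Srgn* (0.09) and *Gata2* (0.03). *Il1rl1*, the receptor for IL-33, which regulatory T cells and innate lymphoid cells also carry, had counts between 16 and 55 (Mature), 11 and 85 (Middle-aged) and 9 and 26 (ALL). Its fit gave a logFC of -1.47 in ALL against Middle-aged (SE 0.46, unadjusted p = 0.00466 and adjusted p = 0.9997 in edgeR). *Spi1*, which encodes the myeloid transcription factor PU.1, had a logFC of -1.07 in the same comparison (SE 0.40, unadjusted p = 0.0149 and adjusted p = 0.9997 in edgeR). The ligand *Il33* had a logFC of 0.52 (SE 0.24, adjusted p = 0.190 in edgeR) and the eosinophil attractant *Ccl11* of 0.38 (SE 0.18, adjusted p = 0.198 in edgeR) in Middle-aged against Mature. None of these 4 passed the FDR threshold.

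The values of the 6 genes were also checked within each of 18 sets of mice (6 genes in 3 groups) by Dixon's criterion. It looks for a mouse far from the rest of its group, and 0 of 18 sets held one, Middle-aged mouse 5 included. With 4 to 7 mice in a group the criterion has little power, so this does not show that no mouse stood apart. The age logFC of each protease was smallest without Middle-aged mouse 5.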
